A study of Mus musculus with 64 samples.

Results

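The cell cycle genes described here are 46 protein-coding genes, chosen by name for known roles in the mammalian cell cycle, out of 55809 genes listed in each of the 64 mouse RNA-seq libraries of the series. They comprise 9 regulators of entry into S phase, 14 genes of S phase and 23 genes of G2 and mitosis. All 46 were listed in every library and all 46 reached the mean count of at least 10 that a gene needed to be tested in every comparison. The lowest mean count of a member was 11 in the thymic libraries and at least 110 in every other set of libraries fitted together.

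Cells commit to division in G1, when cyclin D and cyclin E complexes with their kinases inactivate the retinoblastoma protein and release E2F factors. E2F factors then drive genes for licensing, nucleotide supply and DNA replication in S phase, and the genes of G2 and mitosis follow under the DREAM, B-MYB and FOXM1 programme. A resting T cell keeps most of these genes low, and a T cell that divides raises them together. In bulk samples a larger share of dividing cells and more RNA of these genes per cell cannot be told apart.

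The libraries came from regulatory T (Treg) cells and from cells that express a Foxp3 reporter allele without making Foxp3 protein. In the reversible-allele experiment, heterozygous females carried a Foxp3 allele silenced by a loxP-stop cassette on one X chromosome and a wild-type Foxp3 allele on the other, so that the hosts kept normal Treg cells. PlusFoxp3 cells carried Cd4 creERT2, which removes the cassette after 4-hydroxytamoxifen (4-OHT), and minusFoxp3 cells came from mice without creERT2 that received the same treatment. Resting and active cells were each collected untreated, called day 0, and at days 3, 7, 14 and 28 after a single dose of 4-OHT, with 2 libraries in each of the 20 groups. A further 2 resting and 2 active libraries held Treg cells of untreated mice with a functional Foxp3 GFP reporter allele, called GFP Treg. The degron mice had a Foxp3 protein fused with the auxin-inducible degron (AID), together with either the plant ligase subunit TIR1(F74G), expressed from the Rosa26 locus, or a wild-type (WT) Rosa26 locus, and all received the ligand 5-ph-IAA, which makes TIR1 mark the fusion protein for destruction. By the study's methods, the adult thymic and active cells came from heterozygous females, which also keep Treg cells with wild-type Foxp3, and the infants were hemizygous males, which have no such cells. Treatment lasted 7 days, and adults gave 3 TIR1 and 3 WT libraries each of nascent thymic CD73-negative Treg cells and of active peripheral Treg cells, and infants gave 4 and 4 libraries of Treg cells from spleen and lymph nodes.

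The records of the degron libraries contradict each other. The header of each of the 12 adult files names a library that, by its label, has the genotype opposite to the sample the file is attached to, and these files were assigned by the library name. Under the recorded attachment the sign of every TIR1 against WT difference turns. For the 8 infant libraries the title and the genotype field give opposite genotypes, so the names titled TIR1 and titled WT are used here, and the direction of that comparison is not settled.

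Library totals, in units of 1000000 counts, were 35.1 to 57.4 in the 44 reversible-allele and GFP Treg libraries, 27.8 to 34 in the 12 adult degron libraries and 33.7 to 55.8 in the 8 infant libraries. Foxp3 itself, the check of the labels, lay between 426 and 615 CPM (counts scaled to a library total of 1000000) in the plusFoxp3 libraries of days 3 to 28 and between 43.9 and 82.2 CPM in the minusFoxp3 libraries and the plusFoxp3 libraries of day 0. Summed levels of 7 T cell markers were 4873 to 14630 CPM over all libraries. The summed level of 9 myeloid markers was at most 86.3 CPM, that of 8 B and plasma cell markers at most 65.1 CPM and that of 6 erythroid markers at most 36.4 CPM.

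Promoter sequences of members of each role are printed first. Whether the motifs they hold relate to the levels below was not tested. Of the 46 members, 38 had a promoter in the RefSeq table of the mouse build GRCm38.p6, which is not the build of the counts. The window searched ran from 250 bases before to 50 bases after the start site, on both strands. Capitals mark the E2F motif (TTTCCCGC, TTTCGCGC, TTTGCCGC or TTTGGCGC), the CHR motif (TTTGAA) and the CCAAT box (CCAAT), each in either orientation, so that overlapping E2F matches of both strands run together and a match at the edge is cut. Each sequence runs 5′ to 3′ on the strand of its gene, from 170 bases before the start site to 20 bases after it. The mitotic promoters shown belong to Mki67, a proliferation marker of the chromosome periphery, Top2a, topoisomerase II alpha, Cdk1, the mitotic kinase, Ccnb2, cyclin B2, and Hmmr, a spindle protein.
Mki67, chr7:135716360-135716549, minus strand: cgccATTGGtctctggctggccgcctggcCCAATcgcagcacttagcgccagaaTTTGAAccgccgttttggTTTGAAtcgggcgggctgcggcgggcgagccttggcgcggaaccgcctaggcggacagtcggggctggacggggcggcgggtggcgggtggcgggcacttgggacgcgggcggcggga
Top2a, chr11:99024170-99024359, minus strand: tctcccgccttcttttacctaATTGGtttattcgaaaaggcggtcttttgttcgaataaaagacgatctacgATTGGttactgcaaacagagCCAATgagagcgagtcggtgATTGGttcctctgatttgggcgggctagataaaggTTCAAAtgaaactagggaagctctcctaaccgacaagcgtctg
Cdk1, chr10:69352893-69353082, minus strand: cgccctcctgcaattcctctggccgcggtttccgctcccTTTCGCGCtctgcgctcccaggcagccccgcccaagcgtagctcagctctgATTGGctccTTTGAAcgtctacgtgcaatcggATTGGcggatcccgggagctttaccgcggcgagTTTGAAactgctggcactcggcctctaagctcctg
Ccnb2, chr9:70421535-70421724, minus strand: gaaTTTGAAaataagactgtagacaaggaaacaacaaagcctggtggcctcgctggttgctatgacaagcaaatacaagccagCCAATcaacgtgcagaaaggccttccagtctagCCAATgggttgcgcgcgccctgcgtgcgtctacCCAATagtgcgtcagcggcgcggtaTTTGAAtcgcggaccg
Hmmr, chr11:40733418-40733607, minus strand: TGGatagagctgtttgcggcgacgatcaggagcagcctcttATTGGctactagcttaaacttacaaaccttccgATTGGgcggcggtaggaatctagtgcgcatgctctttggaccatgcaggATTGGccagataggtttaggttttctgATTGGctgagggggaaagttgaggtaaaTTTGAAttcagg

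The S phase promoters shown belong to Mcm5 and Mcm6, subunits of the replicative helicase, and Rrm2, the small subunit of ribonucleotide reductase, beside the promoter of Cdkn1b, the CDK inhibitor p27, as a regulator.
Mcm5, chr8:75109339-75109528, plus strand: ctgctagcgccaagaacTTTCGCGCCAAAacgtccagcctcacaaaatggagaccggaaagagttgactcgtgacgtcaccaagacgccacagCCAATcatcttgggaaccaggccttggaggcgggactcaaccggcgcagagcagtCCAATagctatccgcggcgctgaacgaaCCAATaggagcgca
Mcm6, chr1:128359686-128359875, minus strand: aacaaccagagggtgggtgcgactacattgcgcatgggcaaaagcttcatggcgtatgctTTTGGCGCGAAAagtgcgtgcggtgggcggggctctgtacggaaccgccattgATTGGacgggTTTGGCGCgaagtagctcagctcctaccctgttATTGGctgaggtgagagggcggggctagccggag
Rrm2, chr12:24708084-24708273, plus strand: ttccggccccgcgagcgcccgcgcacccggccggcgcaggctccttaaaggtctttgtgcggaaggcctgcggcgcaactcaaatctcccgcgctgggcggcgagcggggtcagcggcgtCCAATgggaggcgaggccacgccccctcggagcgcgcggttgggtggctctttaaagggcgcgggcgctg
Cdkn1b, chr6:134920231-134920420, plus strand: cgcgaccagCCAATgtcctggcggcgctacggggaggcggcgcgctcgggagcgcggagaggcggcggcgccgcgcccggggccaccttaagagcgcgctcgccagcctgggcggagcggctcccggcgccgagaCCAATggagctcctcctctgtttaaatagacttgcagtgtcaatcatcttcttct

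The CHR motif was present in 13 of 18 matched genes of G2 and mitosis (72.2%), 2 of 13 S phase genes (15.4%), 1 of 7 regulators (14.3%) and 20.2% of all 27025 genes in the table. The E2F motif was present in 6 of 13 S phase genes (46.2%), 2 of 7 regulators (28.6%), 1 of 18 genes of G2 and mitosis (5.56%) and 2.6% of all genes. A CCAAT box was present in 16 of 18 genes of G2 and mitosis (88.9%), 9 of 13 S phase genes (69.2%), 4 of 7 regulators (57.1%) and 41.1% of all genes. Cdk1 was the gene of G2 and mitosis that held an E2F motif, beside CHR motifs and CCAAT boxes. A match is a string of letters in this window and was not tested as a binding site.

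**Figure D1:**
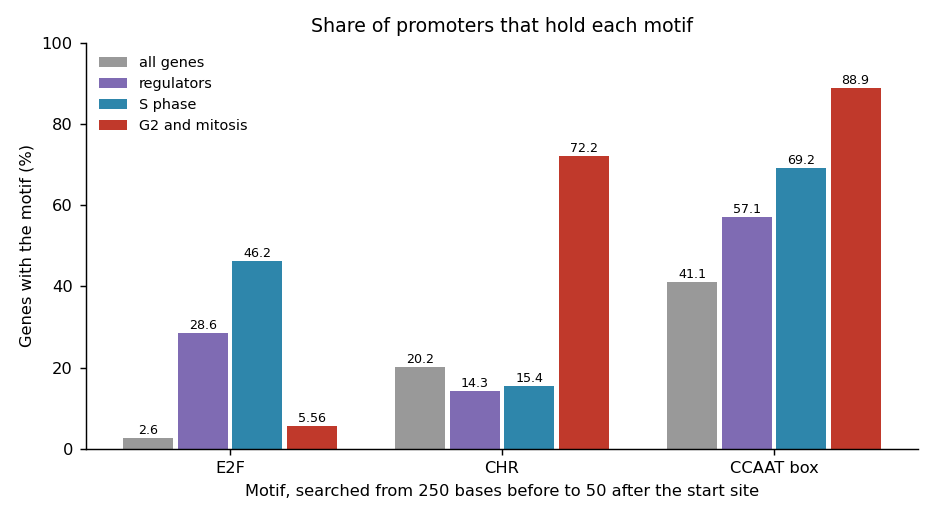
Share of genes (y axis, percent) whose promoter window held each of 3 motifs (x axis), for all genes of the table and for the matched regulators, S phase genes and genes of G2 and mitosis. CHR reached 72.2% in the genes of G2 and mitosis against 20.2% of all genes, and E2F 46.2% in the S phase genes against 2.6%.

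The members differed widely in level. Compared per kilobase of exon in resting GFP Treg cells, Ccnd2, the cyclin D2 that partners Cdk4 and Cdk6, was highest at 89.7 CPM per kilobase, followed by Pcna, the replication sliding clamp, at 52.7 and Mcm6 at 47.1. The mitotic genes lay lower on this scale, with Ccnb2 at 21.7, Top2a at 5.83, Mki67 at 3.44 and Cenpf, a kinetochore protein, lowest at 0.588. Ccnd2 was also the highest member in active GFP Treg cells (71.1 CPM per kilobase) and in resting untreated minusFoxp3 cells (93.5), where Bub1, a spindle checkpoint kinase, was lowest at 0.222. These levels carry no test between genes.

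The first comparison asked how the cell cycle genes differ between active and resting cells that lack Foxp3 protein, over 10 libraries of each. Most S phase and mitotic genes were higher in active cells, as was the inhibitor Cdkn1a, while Cdkn1b and Ccnd3 were lower. Mki67 was 10 CPM at lowest, 13.1 at the median and 18.6 at highest in resting minusFoxp3 cells, and 28.1, 52.9 and 78.8 in active ones. The 2 sets of libraries did not overlap. Its log2 fold change was 1.92 (SE 0.2, edgeR adjusted p = 6.172e-09).

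In all, 35 members were called higher and 2 lower, a call being a Benjamini-Hochberg adjusted p under 0.05 in the quasi-likelihood F test of edgeR over all genes tested. Of all 20790 genes, 37.9% were called, 19.6% higher and 18.3% lower, and their median log2 fold change was -0.03. Of the 23 genes of G2 and mitosis, 22 were called higher, with a median log2 fold change of 1.33 over the group. Bub1 (1.61), Hmmr (1.54), Ccna2, the cyclin A2 of S and G2 phase (1.51), and Cdk1 (1.49) had the largest log2 fold changes there after Mki67. The exception was Cenpa, the centromeric histone H3 variant, at 73.8 ± 18.2 CPM in active and 77.8 ± 9.96 CPM in resting cells (SD, n = 10 each).

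Of the 14 S phase genes, 10 were called higher, with a median of 0.80. Rrm2 rose most, from a median of 34.3 CPM (23.8 to 62.9) in resting to 111 CPM (56.3 to 183) in active cells, with a log2 fold change of 1.60 (standard error 0.23, edgeR adjusted p = 1.374e-06). Mcm5 rose less, by a log2 fold change of 0.53 from 76.8 ± 9.3 to 111 ± 23.8 CPM (SD, n = 10 each). Cdt1, a licensing factor, Mcm4, Mcm7 and Pcna did not pass the test. Pcna was 132 ± 27.8 CPM in active and 152 ± 16.6 CPM in resting cells (SD, n = 10 each).

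The regulators did not move as a group, with a median log2 fold change of 0.03. Cdkn1a, the CDK inhibitor p21, was 0.964 to 3.72 CPM in resting and 6.57 to 18.3 CPM in active cells and rose by a log2 fold change of 2.55 (standard error 0.29, edgeR adjusted p = 3.73e-08). The other inhibitor, Cdkn1b, was 68.1 to 100 CPM in resting and 42.5 to 65.8 CPM in active cells. It fell by 0.69 on the log2 scale (SE 0.096, edgeR adjusted p = 1.037e-06), so the libraries of both inhibitors did not overlap between states, in opposite directions. E2f1, an activator of S phase genes, rose by a log2 fold change of 1.19 and Ccne2, cyclin E2, by 0.85, while Ccnd3, cyclin D3, fell by 0.27. Ccnd2 had a log2 fold change of 0.03 and was not called.

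Other cell cycle genes that are not members moved similarly. Of 38 other S phase genes 25 were called higher and 1 lower, of 56 other genes of G2 and mitosis 46 higher and 2 lower, and of 33 other regulators tested 14 higher and 7 lower. The smallest p-values belonged among others to Racgap1, a cytokinesis regulator (log2 fold change 1.40), Uhrf1, which maintains DNA methylation (1.37), the CDK inhibitor genes Cdkn2b (4.17) and Cdkn2c (2.14), and on the lower side to the condensin gene Smc4 (-1.68), Cdkn2d (-0.77) and Myc (-0.67).

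In GFP Treg cells, the same comparison of states rested on 2 libraries each, and no member was called, while 3.12% of all 20790 genes were. At an unadjusted p under 0.05, 4 members and 3045 genes passed, and DESeq2 called 0 members. All 23 genes of G2 and mitosis had a log2 fold change under 0, with a median of -0.73. Mki67 was 22.4 and 34.6 CPM in active and 35.9 and 33.3 CPM in resting GFP Treg cells. The S phase genes had a median of -0.04, and Rrm2 was 55.3 and 65.5 CPM in active and 79.5 and 64.5 CPM in resting GFP Treg cells. Whether the difference between states itself differed between GFP Treg and minusFoxp3 cells was not tested.

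The next comparisons asked what changes when Foxp3 is restored in resting cells. Before treatment, the 23 genes of G2 and mitosis summed to 260 and 272 CPM in plusFoxp3 and 303 and 253 CPM in minusFoxp3 libraries. At day 3 they summed to 982 and 765 CPM in plusFoxp3 libraries and to 318 and 311 CPM in minusFoxp3 libraries. At days 7, 14 and 28 the plusFoxp3 libraries held 1131 and 518 CPM, 1085 and 351 CPM, and 1233 and 470 CPM, always with the first number for the library numbered 1, and the minusFoxp3 libraries of these days stayed between 220 and 363 CPM. On each of these 4 days both plusFoxp3 sums lay above both minusFoxp3 sums, and the plusFoxp3 libraries of a day lay farther apart than the minusFoxp3 libraries.

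The 14 S phase genes summed to 883 to 1126 CPM in the 10 resting minusFoxp3 libraries. In plusFoxp3 libraries they summed to 1048 and 998 CPM at day 0, 1982 and 1578 CPM at day 3, 1822 and 1223 CPM at day 7, 1883 and 992 CPM at day 14, and 1841 and 1188 CPM at day 28. The library numbered 2 of day 14 lay within the range of the minusFoxp3 libraries, and every other plusFoxp3 library of days 3 to 28 lay above it.

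**Figure D2:**
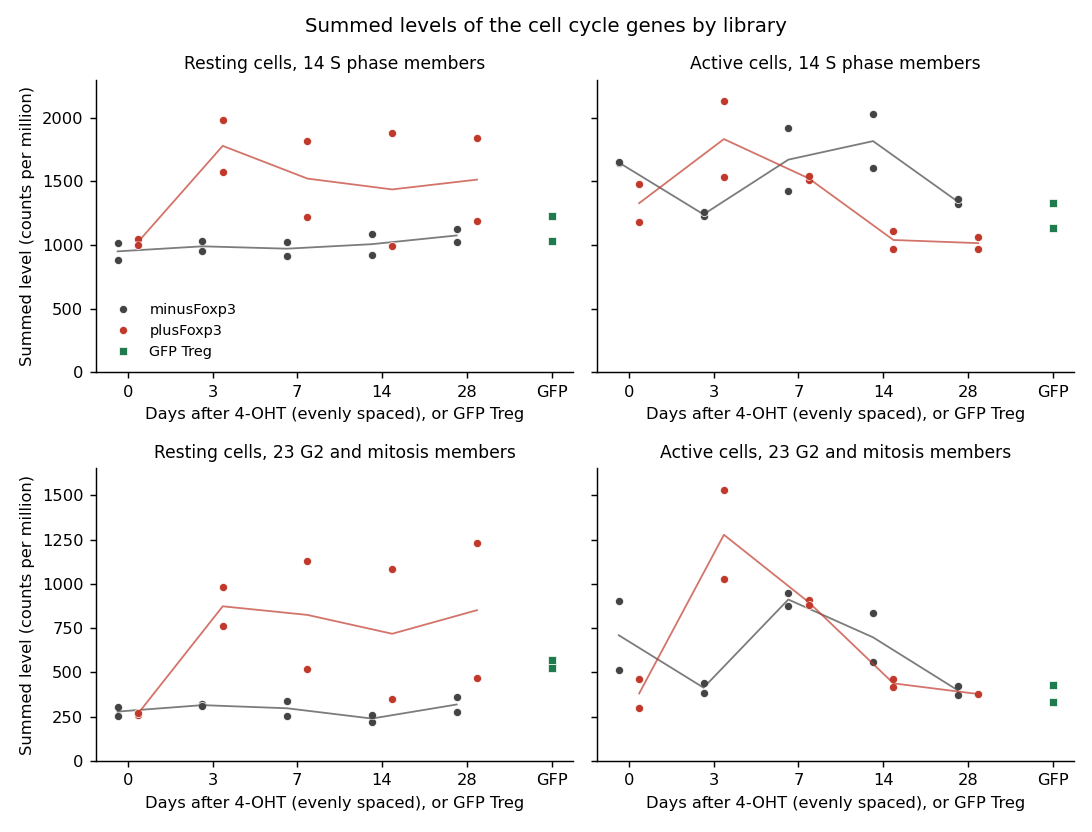
Summed level in CPM (y axis) of the 14 S phase genes (top) and the 23 genes of G2 and mitosis (bottom) in resting (left) and active (right) cells, by day after 4-OHT with day 0 untreated and days evenly spaced (x axis), and in GFP Treg cells. Each point is 1 library and lines join the means of 2 libraries. In resting cells the plusFoxp3 sums of G2 and mitosis reached 351 to 1233 CPM from day 3 on, against 220 to 363 CPM in minusFoxp3 libraries, and in active cells they peaked at day 3 with 1025 and 1530 CPM.

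Day by day, with 2 against 2 libraries, no member was called in resting cells, and this count depended on the processing. Of all 20520 genes, 0.00487% were called at day 0, 0.0487% at day 3, 0.0585% at day 7, 0.268% at day 14 and 0.945% at day 28. At an unadjusted p under 0.05, 4, 33, 28, 31 and 21 members passed at days 0, 3, 7, 14 and 28, and 2219, 2247, 1172, 1821 and 1826 of all genes. DESeq2 called 0, 15, 4, 8 and 3 members, among 45, 220, 147, 294 and 463 of all genes. Without the count filter edgeR called 0, 34, 26, 27 and 23 members, each called member being higher, among 353, 664, 493, 665 and 884 of all genes. Fitted on the 4 libraries of day 3 alone it called 26 members and 204 genes. With the filter, 4 members were called at day 0, 7 at day 14 and 2 at day 28 once plusFoxp3 replicate 2 of that day was left out. The median log2 fold change of the genes of G2 and mitosis was -0.03, 1.89, 1.73, 1.89 and 1.44 on these days and that of the S phase genes 0.22, 1.01, 0.61, 0.72 and 0.58. At each of days 3 to 28 all 23 genes of G2 and mitosis had a log2 fold change above 0.

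Over the 4 treated days together, with 8 against 8 libraries, 38 members were called higher and none lower, while 2.99% of all genes were called higher and their median log2 fold change was -0.02. All 23 genes of G2 and mitosis were called, with log2 fold changes of 0.66 to 2.18. Ccnb2 was 10.7 ± 2.44 CPM in minusFoxp3 and 47.2 ± 22.7 CPM in plusFoxp3 libraries (SD, n = 8 each), a 4.52-fold difference (edgeR adjusted p = 0.0003305). Ccna2 (log2 fold change 2.08), Birc5, the chromosomal passenger survivin (2.07), Ccnb1, cyclin B1 (2.03), and Ube2c, the ubiquitin carrier of the anaphase-promoting complex (2.01), followed.

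Mki67 ranged from 10 to 18.6 CPM with a median of 13.1 in the 8 minusFoxp3 libraries and from 16.3 to 72.7 CPM with a median of 49.6 in the 8 plusFoxp3 libraries. The lowest plusFoxp3 library, numbered 2 at day 14, overlapped the minusFoxp3 range. Its log2 fold change was 1.76 (SE 0.26, edgeR adjusted p = 0.0007602). Top2a ranged from 26.5 to 43.2 CPM and from 34.4 to 122 CPM in the same libraries, with a log2 fold change of 1.25 (standard error 0.26).

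Of the S phase genes, 11 of 14 were called higher. Rrm2 was 23.8 to 62.9 CPM (median 34.3) in minusFoxp3 and 39.1 to 230 CPM (median 155) in plusFoxp3 libraries, a 3.96-fold difference (edgeR adjusted p = 0.0009352). Tyms, thymidylate synthase, rose by a log2 fold change of 0.97 (standard error 0.22) from 23.7 ± 3.07 to 46.3 ± 20.2 CPM (SD, n = 8 each), and Mcm5 by 0.74 (SE 0.18). Cdt1, Mcm2 and Pcna did not pass the test. Pcna was 124 to 167 CPM in minusFoxp3 and 115 to 226 CPM in plusFoxp3 libraries.

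Among the regulators, the cyclin E genes Ccne1 (log2 fold change 0.80) and Ccne2 (1.30), their partner kinase gene Cdk2 and E2f2 were called higher. E2f1 missed the threshold at a log2 fold change of 0.82 (standard error 0.26, edgeR adjusted p = 0.08647). Ccnd2 was 752 ± 112 CPM in minusFoxp3 and 769 ± 25.7 CPM in plusFoxp3 libraries, and Ccnd3 309 ± 19.6 and 306 ± 35.2 CPM (SD, n = 8 each). Neither D cyclin nor Cdkn1a and Cdkn1b passed the test. Of the genes that are no members, 17 of 38 S phase genes, 42 of 56 genes of G2 and mitosis and 4 of 33 regulators were called higher, among them Pclaf, a PCNA-binding factor (2.15), Ckap2, a spindle protein (1.88), and the repressor gene E2f8 (2.07), and only Btg1, an antiproliferative gene, lower (-0.41).

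The resting plusFoxp3 libraries did not contribute alike. The library numbered 1 lay above the one numbered 2 in 42 of 46 members at day 3, 44 at day 7, 45 at day 14 and 45 at day 28, against 26 of 46 at day 0. The share of all genes with this order is not given, so these counts may not be particular to the members. With the libraries numbered 1 alone, 4 against 4, the comparison called 39 members and 3.26% of all genes, and the median log2 fold change of G2 and mitosis was 2.33. With those numbered 2 alone it called 3 members and 2.08% of all genes, with a median of 1.03 and all 23 genes above 0. These 2 choices were made after the data were seen.

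Markers of active T cells were also higher over days 3 to 28. At days 7, 14 and 28 the plusFoxp3 library numbered 1 had the higher marker sum, as it had for G2 and mitosis. At day 3 both plusFoxp3 marker sums lay within the minusFoxp3 range. All 5 markers on that list (Cd44, Icos, Itgae, Klrg1 and Prdm1) had log2 fold changes above 0 over days 3 to 28 in resting cells and 3 of the 5 were called higher. The active markers summed to 203 to 375 CPM in the resting minusFoxp3 libraries, to 333 and 336 CPM in plusFoxp3 libraries at day 3, 575 and 324 CPM at day 7, 519 and 373 CPM at day 14 and 800 and 398 CPM at day 28, with the library numbered 1 first. Resting GFP Treg libraries held 847 and 884 CPM, and active minusFoxp3 libraries 1032 to 1525 CPM. The part of active cells among the sorted resting cells in this result was not tested. Erythroid markers summed to 25.7 CPM in the day 28 plusFoxp3 library numbered 1 and to at most 4.55 CPM in the other resting libraries.

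**Figure D3:**
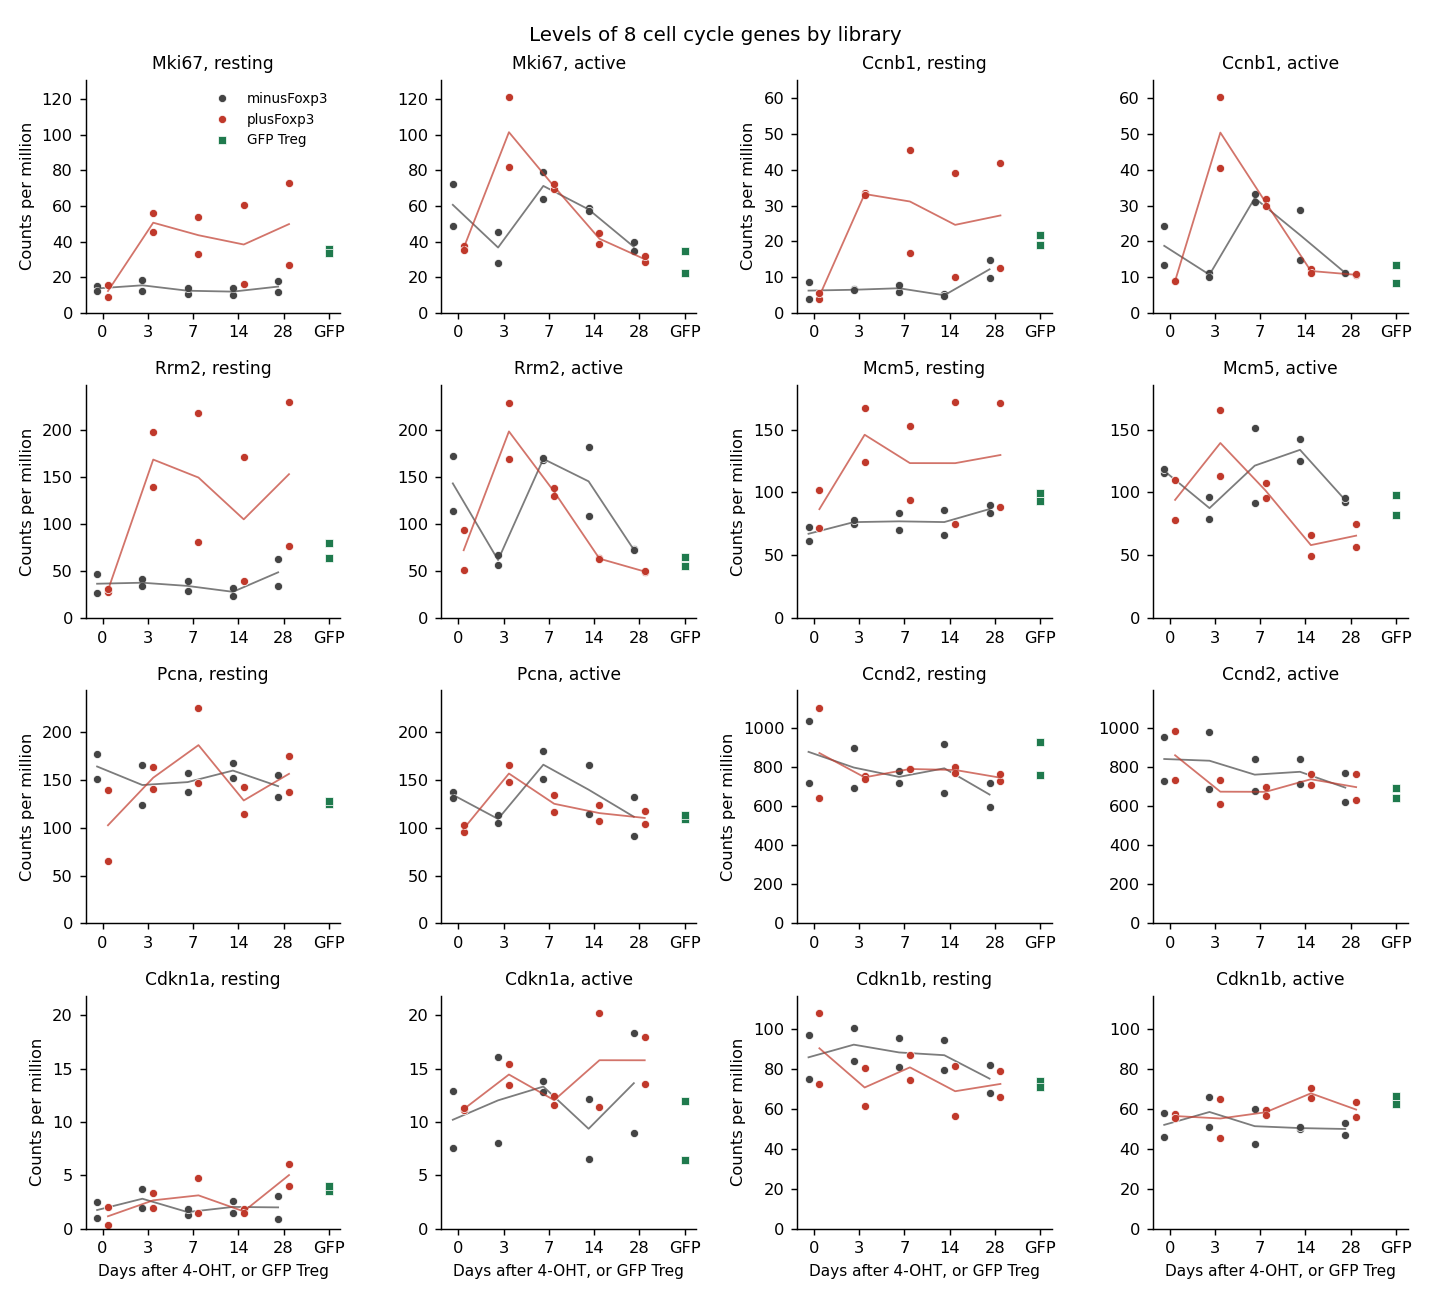
Level in CPM (y axis) of 8 cell cycle genes in resting and active cells by day after 4-OHT, with day 0 untreated and days evenly spaced, and in GFP Treg cells (x axis). Each point is 1 library and lines join the means of 2 libraries. In resting cells Mki67 reached 16.3 to 72.7 CPM in plusFoxp3 libraries from day 3 on, while Ccnd2 and Cdkn1b of plusFoxp3 and minusFoxp3 libraries overlapped over the same days.

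In active cells, restored Foxp3 went with higher mitotic genes at day 3 and not at later days. The 23 genes of G2 and mitosis summed to 464 and 297 CPM in plusFoxp3 against 904 and 515 CPM in minusFoxp3 libraries at day 0. At day 3 the sums were 1025 and 1530 CPM against 442 and 384 CPM, at day 7 911 and 882 CPM against 877 and 946 CPM, at day 14 460 and 415 CPM against 836 and 559 CPM, and at day 28 379 and 376 CPM against 372 and 424 CPM. Both plusFoxp3 sums lay above both minusFoxp3 sums at day 3 and below them at days 0 and 14, and the 2 arms overlapped at days 7 and 28. In minusFoxp3 cells the sum of G2 and mitosis was itself lower at days 3 and 28 than at day 7.

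At day 3 in active cells, 10 members were called higher, among 0.193% of all 20776 genes called higher. Ccnb1 was 40.4 and 60.3 CPM in plusFoxp3 and 11.2 and 10.1 CPM in minusFoxp3 libraries, a log2 fold change of 2.30 (standard error 0.33, edgeR adjusted p = 0.005628). Ccnb2 (2.33), Bub1 (2.17) and Nusap1, a spindle protein (2.00), were also called, as were Mki67 (1.52), Top2a (1.42), Cdc20, Kif11 and Cenpa. The S phase gene called was Rrm2, at 169 and 228 CPM against 67.3 and 56.3 CPM (1.75, edgeR adjusted p = 0.009461). All 23 genes of G2 and mitosis and all 14 S phase genes had log2 fold changes above 0, with medians of 1.75 and 0.68, beside a median of -0.01 over all genes.

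The number called at day 3 depended on single libraries and on the processing. Without 1 library at a time the number called was 0 without minusFoxp3 replicate 1, 1 without minusFoxp3 replicate 2, 9 without plusFoxp3 replicate 1 and 0 without plusFoxp3 replicate 2. Fitted on the 4 libraries of that day alone, the comparison called 0 members and 5 genes. DESeq2 called 25 members higher among 264 genes, and edgeR without the count filter 32 higher among 575 genes, and both held the 10. Erythroid markers summed to 36.4 CPM in plusFoxp3 replicate 2 of that day and to 2.17 CPM in replicate 1, and the active T cell markers had a median log2 fold change of 0.43 with 1 of 5 called. Their part in the result was not tested.

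At days 0, 7 and 28 in active cells no member was called, while 0.00481%, 0.568% and 1.85% of all genes were. At an unadjusted p under 0.05, 21, 1 and 4 members and 951, 2694 and 2281 of all genes passed, and DESeq2 called 1, 0 and 0 members. Without the count filter 14 members were called lower at day 0, none at day 7 and 1 lower at day 28, among 337, 996 and 1174 genes. At day 0, before treatment, the median log2 fold change of G2 and mitosis was -0.99. At day 14 Bub1 (-1.99), Mcm3 (-1.23) and Mcm5 (-1.20) were called lower, with 0.428% of all genes called lower. Mcm5 was 49.7 and 66.5 CPM in plusFoxp3 and 142 and 125 CPM in minusFoxp3 libraries at day 14, and Bub1 3.55 and 2.02 CPM against 12.8 and 9.49 CPM. Without minusFoxp3 or plusFoxp3 replicate 1 of day 14 the count was 0, and without replicate 2 of either it was 1. DESeq2 called 14 members lower among 518 genes at day 14, and edgeR without the count filter 18 lower among 847 genes. At day 7, 2 members were called without minusFoxp3 replicate 2. Mki67 at day 14 was 44.8 and 38.4 CPM in plusFoxp3 against 59.1 and 57.1 CPM in minusFoxp3 libraries and was not called.

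Over days 3 to 28 together, 3 members were called in active cells, where 6.22% of all genes were. The share of members called was thus about that of all genes, and the count is not a result particular to the members. E2f2 (0.55) and Cenpa (0.65) were higher and Mcm3 (-0.49) lower. E2f2 was 45.1 ± 9.37 CPM in plusFoxp3 and 31.2 ± 5.09 CPM in minusFoxp3 libraries, and Cenpa 109 ± 26 and 70.7 ± 17.2 CPM (SD, n = 8 each). Mki67 ranged from 28.3 to 121 CPM in plusFoxp3 and from 28.1 to 78.8 CPM in minusFoxp3 libraries, with a log2 fold change of 0.20, and Rrm2 had one of -0.07. Without day 3, 1 member was called higher and 5 lower, and the median of G2 and mitosis was -0.35.

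The day 3 effect in active cells was compared directly with the mean effect of days 7, 14 and 28, a test added after the data were seen. It called 9 members higher among 0.159% of all genes called higher. Bub1 had the largest difference of log2 fold changes (2.92, SE 0.46, edgeR adjusted p = 0.0168), followed by Nusap1 (2.69), Ccnb1 (2.62), Ccna2 (2.55) and Rrm2 (2.42), with Top2a at 1.98 and Mki67 at 1.77. The count was 0 without minusFoxp3 replicate 1 or plusFoxp3 replicate 2 of day 3, and 1 without minusFoxp3 replicate 2. DESeq2 called 32 members higher among 231 genes, edgeR without the count filter 34 among 468 genes, and a fit of only the libraries compared 20 among 70 genes. In resting cells the same test called 0 members and 0% of genes, with 2 members at an unadjusted p under 0.05, and DESeq2 called 0 members. The median difference of G2 and mitosis was 0.02 in resting cells and 2.19 in active cells.

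The difference between the 2 states in the effect of restored Foxp3 over days 3 to 28 was tested in one fit of all 44 libraries. It called 27 members, all with the smaller effect in active cells, where 1.24% of all 20790 genes were called in that direction. By role, 17 of 23 genes of G2 and mitosis, 9 of 14 S phase genes and E2f1 were called, and the median difference of log2 fold changes was -1.65 for G2 and mitosis and -1.02 for S phase. Rrm2 differed by -2.07 (SE 0.35, edgeR adjusted p = 0.001525), Nusap1 by -2.01, Ccna2 by -1.96, Cdc6, a licensing factor, by -1.94 and Mki67 by -1.58. Pcna (-0.11), Cenpa (-0.02) and Ccnd3 (0.10) did not pass. Of the genes that are no members, 12 of 38 S phase genes, 20 of 56 genes of G2 and mitosis and 3 of 33 regulators were called in the same direction, and none in the other. The test did not subtract the difference between arms at day 0, before treatment. At day 0 both plusFoxp3 sums of G2 and mitosis lay below both minusFoxp3 sums in active cells, as given above. In resting cells the sums of the arms overlapped at day 0. The part of this earlier gap in the result was not tested.

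This count moved with single libraries. It was 13 without resting plusFoxp3 day 14 replicate 1, 15 without resting plusFoxp3 day 7 replicate 1 or day 28 replicate 1, 17 without resting plusFoxp3 day 3 replicate 1 and 16 without active plusFoxp3 day 3 replicate 1. With libraries numbered 1 alone 5 members and 0.339% of all genes were called, with those numbered 2 alone 0 members and 0.0579% of genes, and the median difference of G2 and mitosis was -2.09 and -0.63. Without day 3, 31 members and 2.3% of genes were called.

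**Figure D4:**
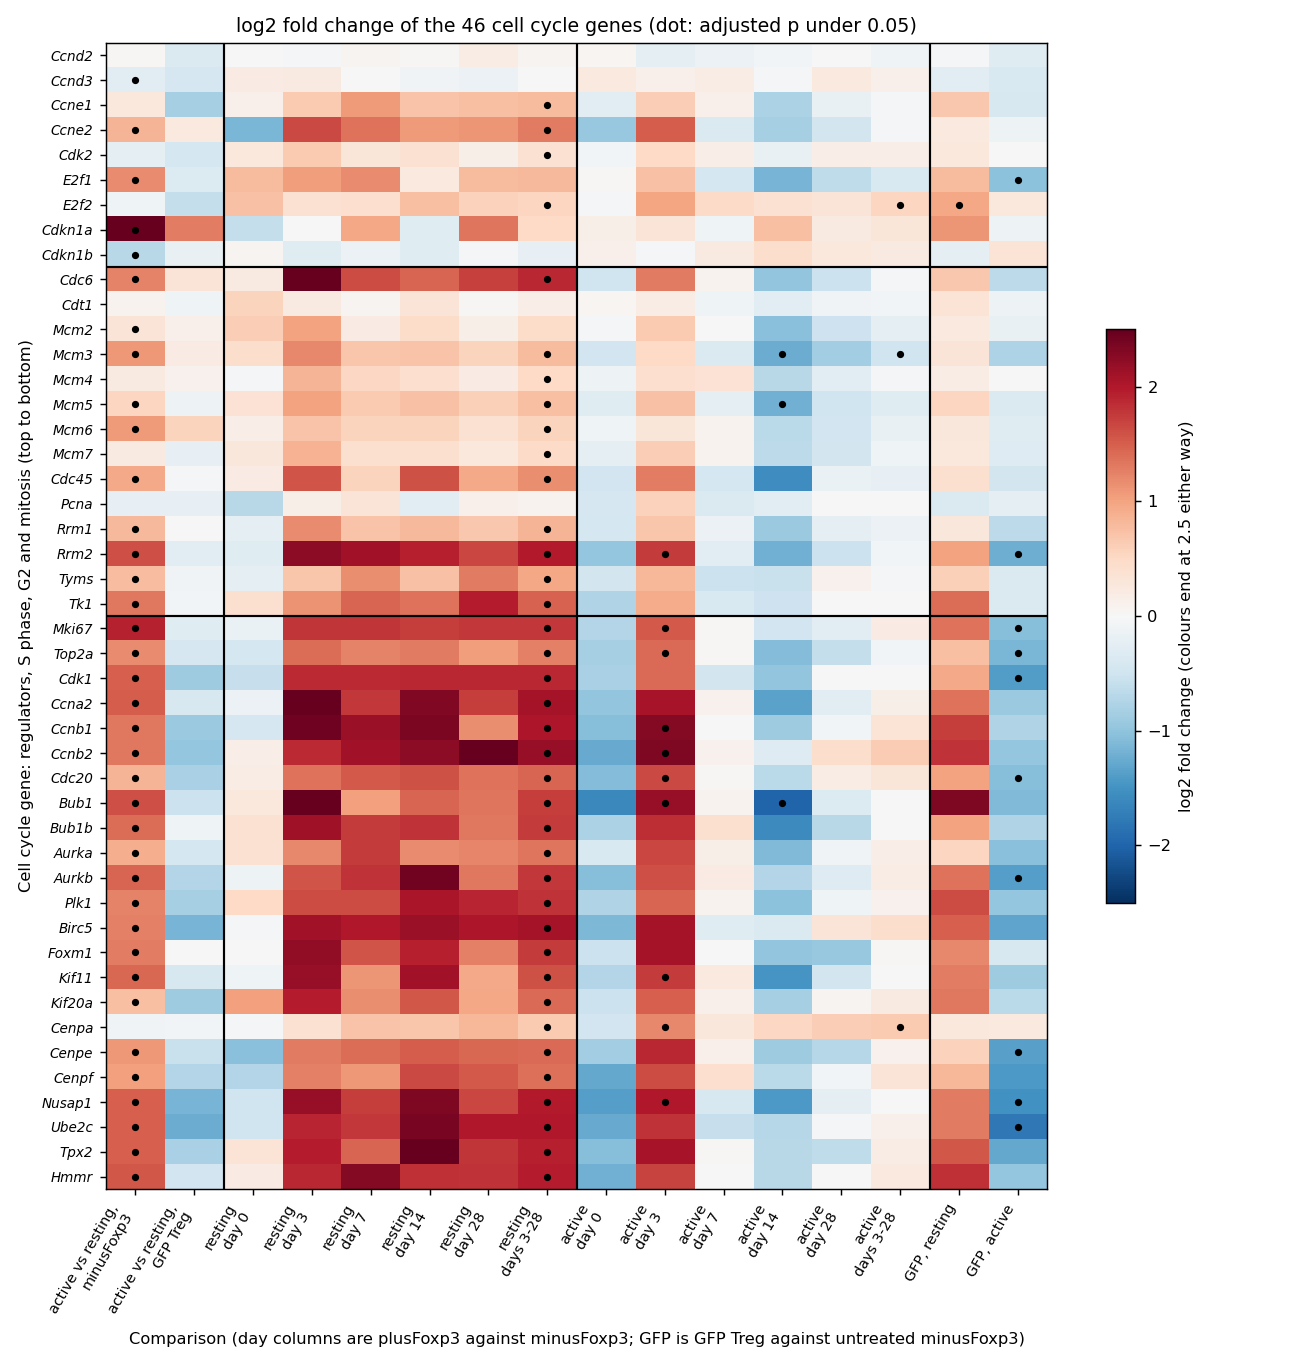
log2 fold change (colour) of each of the 46 cell cycle genes (rows of the picture, regulators above S phase above G2 and mitosis) in the comparisons of the reversible allele and GFP Treg libraries (columns), with a dot where the edgeR adjusted p was under 0.05. Colours end at 2.5 either way. All 23 genes of G2 and mitosis carry a dot over resting days 3 to 28 and 1 of them over active days 3 to 28.

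GFP Treg cells were compared with untreated minusFoxp3 cells of the same state. In resting cells the genes of G2 and mitosis summed to 569 and 524 CPM in GFP Treg against 303 and 253 CPM in minusFoxp3 libraries, so the groups did not overlap. E2f2, at 52.2 and 53.2 CPM against 21 and 33.2 CPM, was the member called (log2 fold change 0.97, edgeR adjusted p = 0.0295), while 1.7% of all genes were called higher. A single call is about what that share gives in a set of this size, so it is not particular to the members. All 23 genes of G2 and mitosis had log2 fold changes above 0 (median 1.31), and 11 of them passed at an unadjusted p under 0.05. DESeq2 called 4 members higher among 1036 genes, and edgeR without the count filter 18 higher among 1436 genes. E2f2 was not called without minusFoxp3 replicate 1 or without either GFP Treg library. Mki67 was 35.9 and 33.3 CPM against 15.3 and 12.1 CPM (log2 fold change 1.35, edgeR adjusted p = 0.2516). In these libraries too the 5 active T cell markers were higher, with 3 called.

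In active cells the direction against the untreated minusFoxp3 libraries was the opposite. The genes of G2 and mitosis summed to 332 and 428 CPM in GFP Treg against 904 and 515 CPM in minusFoxp3 libraries, and 10 members were called lower, among 4.79% of all genes called lower. Ube2c (-1.80), Nusap1 (-1.52), Cdk1 (-1.40), Aurkb, the kinase of the chromosomal passenger complex (-1.37), Top2a (-1.15) and Mki67 (-1.07) were among the 8 mitotic genes called, with Rrm2 (-1.22) and E2f1 (-1.02). Cdk1 was 6.91 and 11 CPM against 30.3 and 17.7 CPM (edgeR adjusted p = 0.01471). The count was 0 without GFP Treg replicate 1 or without minusFoxp3 replicate 1, 5 without GFP Treg replicate 2 and 16 without minusFoxp3 replicate 2. Without the count filter 21 members were called lower among 2956 genes, and in a fit of the 4 libraries alone 4 among 1519 genes. Other active cells without Foxp3 protein varied in level. Mean Mki67 was 36.4 CPM in untreated plusFoxp3 libraries, and 36.7, 71.3 and 58.1 CPM in minusFoxp3 libraries of days 3, 7 and 14. It was 60.7 CPM in the untreated minusFoxp3 libraries and 28.5 CPM in GFP Treg. Active GFP Treg cells were not tested against those other groups. Whether GFP Treg cells differed from minusFoxp3 cells more in one state than in the other was not tested.

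The restored cells of day 28 were then compared with GFP Treg cells, and no member was called in either state, where 0.0341% of genes in resting and 2.01% in active cells were. At an unadjusted p under 0.05, 1 and 2 members and 813 and 2322 of all genes passed, and DESeq2 called 0 and 0 members. In active cells 1 member was called without plusFoxp3 replicate 2. In resting cells all 23 genes of G2 and mitosis were above GFP Treg levels, with a median log2 fold change of 0.73, and the median in active cells was 0.01. These comparisons share the GFP Treg libraries with those against untreated minusFoxp3 cells.

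Treatment and time without restored Foxp3 gave no call. MinusFoxp3 libraries of days 3 to 28 against day 0 had 0 members and 0% of genes called in resting cells and 0 members and 0% of genes in active cells. At an unadjusted p under 0.05, 2 members passed in each state, with 621 of all genes in resting and 408 in active cells, and DESeq2 called 0 members in both. In resting cells the median log2 fold change of G2 and mitosis was 0.16 and in active cells -0.32, where all 23 genes lay under 0.

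In the degron experiment the question was whether the cell cycle genes change when Foxp3 protein is lost. In thymic Treg cells, 0 members and 0% of 14245 genes were called, with 7 members and 1050 genes at an unadjusted p under 0.05 and 2 members called by DESeq2. The number of all genes that DESeq2 called there is not given, so these 2 cannot be set against it. The study, using DESeq2, reported more changed genes in thymic than in resting or activated Treg cells. The 0 calls here therefore do not show that the members stayed unchanged. The S phase genes summed to 914, 981 and 1169 CPM in TIR1 and 760, 700 and 846 CPM in WT libraries, without overlap, and those of G2 and mitosis to 202, 199 and 238 CPM and 180, 139 and 230 CPM, with overlap. Cenpa made up a large part of the G2 and mitosis sum, at a mean of 103 CPM in WT and 89 CPM in TIR1 libraries. Its direction was opposite to the median of the group. The median log2 fold change of the S phase genes was 0.40 and that of G2 and mitosis 0.77. Mki67 had no counts in 2 of the 3 thymic WT libraries and 3.55 CPM in the third, beside 4.37, 4.44 and 6.21 CPM in TIR1 libraries.

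In active degron cells, 0 members and 0% of 14554 genes were called, with 1 member and 672 genes at an unadjusted p under 0.05 and 0 members called by DESeq2. The genes of G2 and mitosis summed to 1112, 882 and 1149 CPM in TIR1 and 943, 1241 and 1175 CPM in WT libraries, and Mki67 was 71.2, 40.2 and 39.8 CPM in TIR1 and 29.3, 55 and 69.8 CPM in WT libraries. Both groups overlapped. The difference between the thymic and the active effect had 0 members and 0% of 14769 genes called, with 6 members and 984 genes at an unadjusted p under 0.05 and 0 by DESeq2. Without thymic WT replicate 3, 2 members were called.

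Thymic WT cells had lower levels of mitotic genes than active WT cells, and of most S phase genes under the file assignment used here. The genes of G2 and mitosis summed to 180, 139 and 230 CPM in the thymus and to 943, 1241 and 1175 CPM in active cells, and the S phase genes to 760, 700 and 846 CPM and to 1097, 1793 and 1978 CPM. In the test 34 members were called lower and 1 higher in the thymus, with 13.8% of 14769 genes called lower and 9.22% higher. Top2a was 7.09, 7.86 and 13.9 CPM against 65.2, 93.8 and 87.7 CPM, a 9.14-fold difference (edgeR adjusted p = 2.796e-05). Cdk1 fell by 3.58 on the log2 scale (edgeR adjusted p = 0.0003773) and Rrm2 7.96-fold lower (edgeR adjusted p = 5.234e-05).

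Several genes were near the limit of detection in the thymus, where Mki67, Bub1, Bub1b, Aurkb, Ccnb2, Cenpf, Ube2c, Cdc6 and Cdkn1a each had at least 1 WT library without counts, so their fitted fold changes depend on the prior count. Cdkn1a was 0, 0.97 and 0 CPM in thymic and 28, 14.3 and 15.9 CPM in active WT libraries and fell by 5.96 on the log2 scale (SE 1.3, edgeR adjusted p = 0.005022). Ccnd2 was the member called higher in the thymus, at 1703, 1741 and 1866 CPM against 966, 744 and 829 CPM (log2 fold change 0.97, SE 0.11, edgeR adjusted p = 4.167e-05). Ccnd3 (0.13) and Cdkn1b (0.13) were not called. Under the recorded attachment of files, 26 members were called lower and 2 higher in the same comparison, where 20.1% of all genes were called. Of the members called lower, 18 were genes of G2 and mitosis, with a median log2 fold change of -3.17, and 6 were S phase genes, with a median of -0.63. Mcm5 was then at 0 and not called, and Ccnd3 was called higher at 0.40 (edgeR adjusted p = 0.0193).

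In infants, the genes of G2 and mitosis summed to 2010, 2567, 1713 and 1656 CPM in libraries titled TIR1 and to 558, 906, 826 and 1608 CPM in those titled WT, and the S phase genes to 2375, 2961, 2408 and 2269 CPM and to 1356, 1723, 1620 and 2289 CPM. Titled WT replicate 4 stood close to the titled TIR1 libraries. No member was called and 0.0185% of 16209 genes were, while 42 members and 2827 genes passed at an unadjusted p under 0.05 and DESeq2 called 23 members and 6.83% of genes. All 14 S phase and all 23 genes of G2 and mitosis had log2 fold changes above 0, with medians of 0.60 and 1.07. Mki67 was 176, 229, 124 and 144 CPM against 45.8, 75.5, 63.2 and 133 CPM (log2 fold change 1.10, SE 0.33, edgeR adjusted p = 0.1539).

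Without titled WT replicate 4, 40 members were called higher and 1 lower in the libraries titled TIR1, where 11% of 16136 genes were called, and the medians were 0.78 and 1.47. That library had the highest level of its group in 43 of 46 members, with all S phase and mitotic genes among them. The share of all genes for which this held is not given. Leaving out any other infant library gave 0 calls. Its 5 active T cell markers summed to 585 CPM, beside 250, 220 and 193 CPM in the other titled WT libraries and 543 to 744 CPM in those titled TIR1. Ccnd2 ran the other way, at 628, 643, 750 and 600 CPM in libraries titled TIR1 and 840, 949, 962 and 627 CPM in those titled WT. The part of this library's composition or labelling in the result was not tested.

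**Figure D5:**
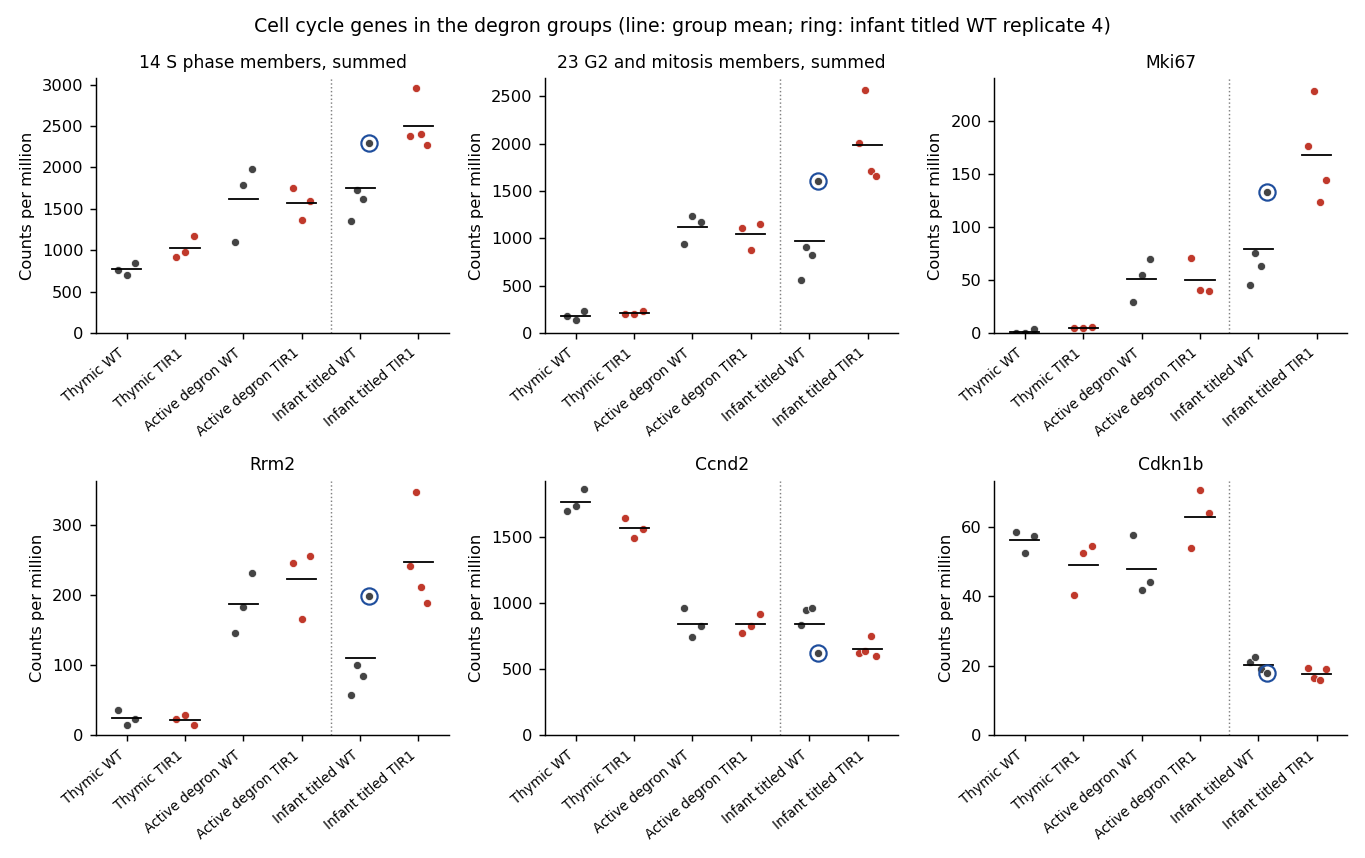
Level in CPM (y axis) of the summed S phase genes, the summed genes of G2 and mitosis, Mki67, Rrm2, Ccnd2 and Cdkn1b in the adult and infant degron groups (x axis), with adults left of the dotted line and infants right of it, which were counted with the same settings but fitted apart. Each point is 1 library, bars are group means and the ring marks infant titled WT replicate 4, which lies at 1608 CPM for G2 and mitosis, above the other titled WT libraries at 558 to 906 CPM.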

How the data were processed

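RNA was measured in 64 bulk libraries of mouse Treg cells and of cells that express a Foxp3 reporter allele without Foxp3 protein. The deposited values were raw read-pair counts per gene made by the authors with featureCounts v2.0.3 and GENCODE vM30 on mm39. The study's methods name STAR as aligner of bulk RNA-seq, while the record of upstream tools lists Bowtie2. No strand option was set, so reads of overlapping antisense genes cannot be told apart. Per the file headers, the 20 degron libraries were counted from primary alignments with a minimum mapping quality of 30 and the other 44 were not, so groups were compared only within one setting.

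The test was edgeR 4.0.16 (quasi-likelihood, TMM, robust) in R 4.3.3 on genes with a mean count of at least 10. Resting, active, thymic, active degron and infant libraries were fitted apart, except where states or tissues were compared. P-values were adjusted by Benjamini-Hochberg over all genes tested and called under 0.05. CPM are counts scaled to a library total of 1000000. DESeq2 1.42.0, RLE size factors, no count filter, a replicate block, fits of only the libraries compared and leaving out each library were alternatives. The scripts were tested on simulated data.

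The 46 members and the other lists were chosen with earlier results of these data known. All members could be named, with values in every library for anchor members and for up to 3 further called members per direction, and from other lists up to 3 called genes per direction with the smallest p. Where the labels do not say that libraries came from separate animals, p-values measure only the spread between these libraries, which may be technical. The study's figure legends call the replicates of the reversible-allele, thymic and active degron groups independent and biological. A list of resting T cell markers is not reported here.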

Additional observations from a re-analysis of the deposited data

Results flagged for a closer look

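The effect of restored Foxp3 over days 3 to 28 differed between active and resting cells in 27 members by the test of the difference itself. In each it was smaller in active cells. The test did not subtract the gap between arms at day 0. The summed mitotic genes were then already lower in active plusFoxp3 libraries, as given above. Among the members described above, the difference of log2 fold changes (active minus resting) was -2.07 for Rrm2, -2.01 for Nusap1, -1.96 for Ccna2, -1.94 for Cdc6, -1.89 for Cdk1, -1.71 for Ccnb1, -1.65 for Birc5, -1.58 for Mki67, -1.33 for Top2a, -1.20 for E2f1, -1.06 for Mcm5 and -1.03 for Tyms.

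Within active cells, the day 3 effect exceeded the mean effect of days 7, 14 and 28 in 9 members, by a test added after the data were seen. The difference of log2 fold changes was 2.92 for Bub1, 2.69 for Nusap1, 2.62 for Ccnb1, 2.55 for Ccna2, 2.42 for Rrm2, 1.98 for Top2a and 1.77 for Mki67. The 9 calls depended on single libraries of day 3, as given above.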

How the results depend on the processing

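RLE size factors kept direction and call of all 213 values recomputed with them. Of 224 medians over a role, 222 moved by less than their limit, 1 moved and 1 turned, and of 516 values of named genes 493 kept their call, 4 lost it and 19 gained it. The numbers of the libraries were not taken to pair them, and with 2 libraries a group the check cannot exclude pairing. Over 15 comparisons with 2 pairs the correlation of same-numbered deviations was -0.192 to 0.304. Over 4 comparisons with 3 or 4 pairs it was -0.203 to 0.129. With a replicate block, the members called were 2 rather than 1 for GFP Treg against minusFoxp3 in resting cells and 2 rather than 0 for resting day 28, and the median of G2 and mitosis for active day 28 against GFP Treg was -0.01 rather than 0.01. With the numbers of active GFP Treg crossed in the block, an alternative added after the data were seen, 13 members were called rather than 10. The cause of these shifts was not tested.

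Without the count filter, the members called were 5 for the states in GFP Treg, 18 and 21 for GFP Treg against minusFoxp3 in resting and active cells, 34, 26, 27 and 23 for resting days 3, 7, 14 and 28, 4 for resting day 28 against GFP Treg, 1 for time in resting cells, 14, 32, 18 and 1 for active days 0, 3, 14 and 28, 5 for active days 3 to 28, and 1 and 34 for day 3 against later days in resting and active cells. With DESeq2 they were 4 for GFP Treg in resting cells, 15, 4, 8 and 3 for resting days 3, 7, 14 and 28, 1, 25 and 14 for active days 0, 3 and 14, 2 for thymic TIR1, 23 for infants and 32 for day 3 against later days in active cells. Fits of only the libraries compared called 1 for the states in GFP Treg, 2 and 4 for GFP Treg in resting and active cells, 26 for resting day 3, 0 for active day 3 and 20 for day 3 against later days in active cells. Without day 3, 6 were called over active days 3 to 28. With libraries numbered 1 only, 5 were called for the difference between states and 0 over active days 3 to 28. With those numbered 2 only, 0, 0 and 3 were called for the difference between states, active days 3 to 28 and resting days 3 to 28. The cause was not tested. Counts of members under an alternative or without 1 library, here and above, are not a result about the members where no number of all genes called stands beside them.

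Leaving out 1 library at a time gave 35 to 38 calls for the states in minusFoxp3 cells, 13 to 34 for the difference between states, 31 to 40 over resting days 3 to 28, 2 to 4 over active days 3 to 28, and 28 to 38 for thymic against active WT. For GFP Treg it gave 0 to 1 in resting and 0 to 16 in active cells, and 0 to 1 for active day 28 against GFP Treg. By day it gave 0 to 4, 0 to 7 and 0 to 2 for resting days 0, 14 and 28, and 0 to 9, 0 to 2 and 0 to 1 for active days 3, 7 and 14. For infants it gave 0 to 41, for the difference between thymic and active degron effects 0 to 2, and for day 3 against later days in active cells 0 to 17. Where a group is left with 1 library, its spread is assumed to be like that of the other groups.

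With 2 libraries a group, calls for a single day rest on a spread shared across groups, and the few counts of mitotic genes in thymic libraries limit their fitted fold changes.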
